A study of Mus musculus with 12 samples.

Results

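The 9 genes described here mark the passage of a cortical progenitor into neuronal commitment: Neurog1, Neurog2, Gadd45g, Mfng, Eomes, Insm1, Tfap2c, Neurod1 and Elavl4. They were taken by symbol, as a list of genes of cortical neurogenic commitment, from the 54735 gene symbols listed for each of 12 mouse embryos. RNA came from the pallium (dorsal telencephalon, from which the cerebral cortex develops) of C57/Bl6 embryos at E13.5, with 4 embryos in each of 3 groups. Control embryos were Rnu11wt/flx::Trp53wt/wt::Emx1-Cre+, Rnu11 conditional knockouts (cKO) were Rnu11flx/flx::Trp53wt/wt::Emx1-Cre+, and double knockouts (dKO) were Rnu11flx/flx::Trp53flx/flx::Emx1-Cre+. Rnu11 is the gene of the U11 RNA, a part of the minor spliceosome, and Trp53 encodes p53. All 12 embryos carried Emx1-Cre, a recombinase driven in pallial progenitors and their descendants, so control embryos were heterozygous for the Rnu11 deletion and cells outside that lineage in the dissected tissue keep their floxed alleles. Levels are in TPM (transcript abundance scaled for length to a fixed library sum), which keeps no sequencing depth; depth per library is therefore unknown. Nothing in the labels states that embryos of a group came from separate litters, so p-values measure the spread between these embryos.

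In the developing pallium, radial glial cells at the ventricle divide and give rise to intermediate progenitors, which move to the subventricular zone and divide again into neurons of the glutamatergic lineage. Proneural factors of the basic helix-loop-helix family start this step: they raise Notch ligands, which act on neighbouring cells, and they switch on Eomes and then Neurod1, while Notch signalling and Id proteins oppose them. Eomes is the standard marker of intermediate progenitors in the cortex, and Neurod1 and Elavl4 are reached later, in cells leaving the cycle and in new neurons.

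Promoter sequences are shown for Eomes and Neurog2, on which the results turn, beside those of the other members, so that their start regions can be compared; the letters shared by some of them do not follow which genes differed between groups. The RefSeq promoter table held an entry for 6 of the 9 genes. The lines give the 60 bases before the annotated start, 5′ to 3′ on the gene's strand, in build GRCm38.p6, with the letters TATAA in capitals wherever they occur.
Eomes, chr9:118478129-118478188, plus strand: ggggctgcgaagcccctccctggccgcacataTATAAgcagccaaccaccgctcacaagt
Neurog2, chr3:127633076-127633135, plus strand: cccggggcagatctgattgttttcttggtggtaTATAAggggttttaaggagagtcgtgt
Gadd45g, chr13:51846615-51846674, plus strand: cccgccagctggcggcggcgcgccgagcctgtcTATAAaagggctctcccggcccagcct
Neurod1, chr2:79456637-79456696, minus strand: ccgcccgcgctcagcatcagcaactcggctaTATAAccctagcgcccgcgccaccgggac
Neurog1, chr13:56252181-56252240, minus strand: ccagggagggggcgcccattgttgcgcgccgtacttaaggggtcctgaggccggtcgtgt
Elavl4, first start listed, chr4:110351912-110351971, minus strand: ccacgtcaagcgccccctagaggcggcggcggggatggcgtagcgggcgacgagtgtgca
TATAA, searched on both strands, was present in 4 of these 6 genes, and in each of the 4 its first base lay 27 to 29 bases before the start. Over all 32851 promoters in the table, 7.24% held TATAA in the same window. Neurog1 had no match, nor had Elavl4 at any of its 4 annotated starts. CANNTG, the general letters of the E-box read by proneural factors, was present in 66.2% of all promoters over 250 bases but in none of the 250-base windows of Eomes, Neurog1, Neurog2 and the first Elavl4 start. Gadd45g had 3 matches and Neurod1 had 1, and the other 3 Elavl4 starts had 3, 3 and 1. A match is a description of letters, and its absence says only that those letters are not in the window.

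The genes also differ in structure in the GENCODE M21 annotation of GRCm38. Neurog1 (chr13:56250478-56252163, minus strand) and Insm1 (chr2:146221921-146225020, plus strand) have no intron. Neurog2 (chr3:127633135-127635631, plus strand) and Neurod1 (chr2:79452521-79456751, minus strand) have 1 intron each. Gadd45g (chr13:51846678-51848468, plus strand) has 3, Tfap2c (chr2:172549593-172558622, plus strand) 6 and Mfng (chr15:78755882-78773475, minus strand) 7. Eomes (chr9:118478212-118486132, plus strand) has 4 or 5 introns depending on the transcript, and Elavl4 (chr4:110203722-110351909, minus strand) spans 148188 bases. Neurod1 overlaps Cerkl on the same strand and Gm26755 on the other, and Eomes overlaps the antisense gene Gm33460. Libraries were stranded, but whether counting used the strand is not given in the sources used here. The Eomes and Neurod1 values may therefore hold reads of Gm33460 and Gm26755. Strand cannot separate Cerkl from Neurod1, so Neurod1 may hold reads of Cerkl in either case.

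The genotype labels matched the targeted genes. Rnu11 was 22.6% of its control mean in cKO and 25.6% in dKO, with no overlap of embryos, and Trp53 in dKO was 32.1% of its control mean, also with no overlap. The dorsal markers Emx1, Emx2 and Lhx2 were present in every library, while 3 of 9 ventral markers were listed at 0 in some libraries and 8 of the 9 averaged under 1 TPM. Most genes were shifted in cKO as deposited: over the 11764 genes tested (those averaging 1 TPM or more), the median log2(TPM + 1) difference from control was 0.25 in cKO and -0.01 in dKO, and dKO lay -0.26 from cKO. Each member is therefore given on 3 scales: as deposited, after median-shift centring (each library shifted so that its median gene matches the mean library), and after protein-coding rescaling (each library multiplied to an equal nuclear protein-coding sum). Nuclear protein-coding genes held 14.62% to 16.34% of the TPM in control, 16.07% to 19.99% in cKO and 14.45% to 15.49% in dKO. A gene was called when its Benjamini-Hochberg adjusted p in limma, over all 11764 genes, was under 0.05. In places where no gene of a list was called, the number with an unadjusted limma p under 0.05 is given. The share of all genes at that unadjusted threshold was not computed, so those numbers cannot be read against the whole table. In bulk tissue, fewer cells of a type and less RNA per cell cannot be told apart.

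All 9 genes passed the filter on low values. In control embryos Neurog2, a proneural factor that commits pallial progenitors to the glutamatergic fate, had the highest mean at 15.5 ± 3.33 TPM (SD, n = 4 here and below). Elavl4, a neuronal RNA-binding protein, followed at 15.4 ± 1.29 TPM, and Mfng, a glycosyltransferase that modifies Notch receptors, at 14.0 ± 1.65. The ranges of these 3 genes overlapped, and all their values lay above those of the other 6. Eomes stood at 8.52 ± 1.04 TPM, Neurod1, a factor of neuronal differentiation, at 7.09 ± 1.14 and Gadd45g, a stress and growth arrest protein that is induced by proneural factors, at 4.98 ± 0.969. Each of these overlapped its neighbour in the order, and all 3 lay above the remaining genes in every control embryo. Tfap2c, a transcription factor of a subset of progenitors, reached 2.70 ± 0.548 TPM, Neurog1, the close relative of Neurog2, 1.95 ± 0.570, and Insm1, a zinc finger factor that promotes the formation of intermediate progenitors, 1.30 ± 0.25. These 3 ranges also overlapped from one to the next. Neurog2 lay above 83.2% of the 10065 protein-coding genes tested and Insm1 above 9.85%.

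The means were ordered differently in the mutants. Neurog2 came after Elavl4 and Mfng in both, at 10.6 ± 0.992 TPM in cKO and 11.5 ± 1.77 in dKO; Elavl4 reached 17.5 ± 2.02 and 16.0 ± 2.90, and Mfng 15.5 ± 3.12 and 15.8 ± 1.24. Neurod1 stood above Eomes in both mutants, at 8.62 ± 1.72 against 7.54 ± 1.23 TPM among cKO embryos and 6.49 ± 1.29 against 5.43 ± 0.723 in dKO, with overlapping ranges in each group. The summed level of the 9 genes did not follow genotype: control embryos ran from 59.4 to 80.5 TPM, cKO from 59.6 to 83.6 and dKO from 58.5 to 72.4.

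**Figure D1:**
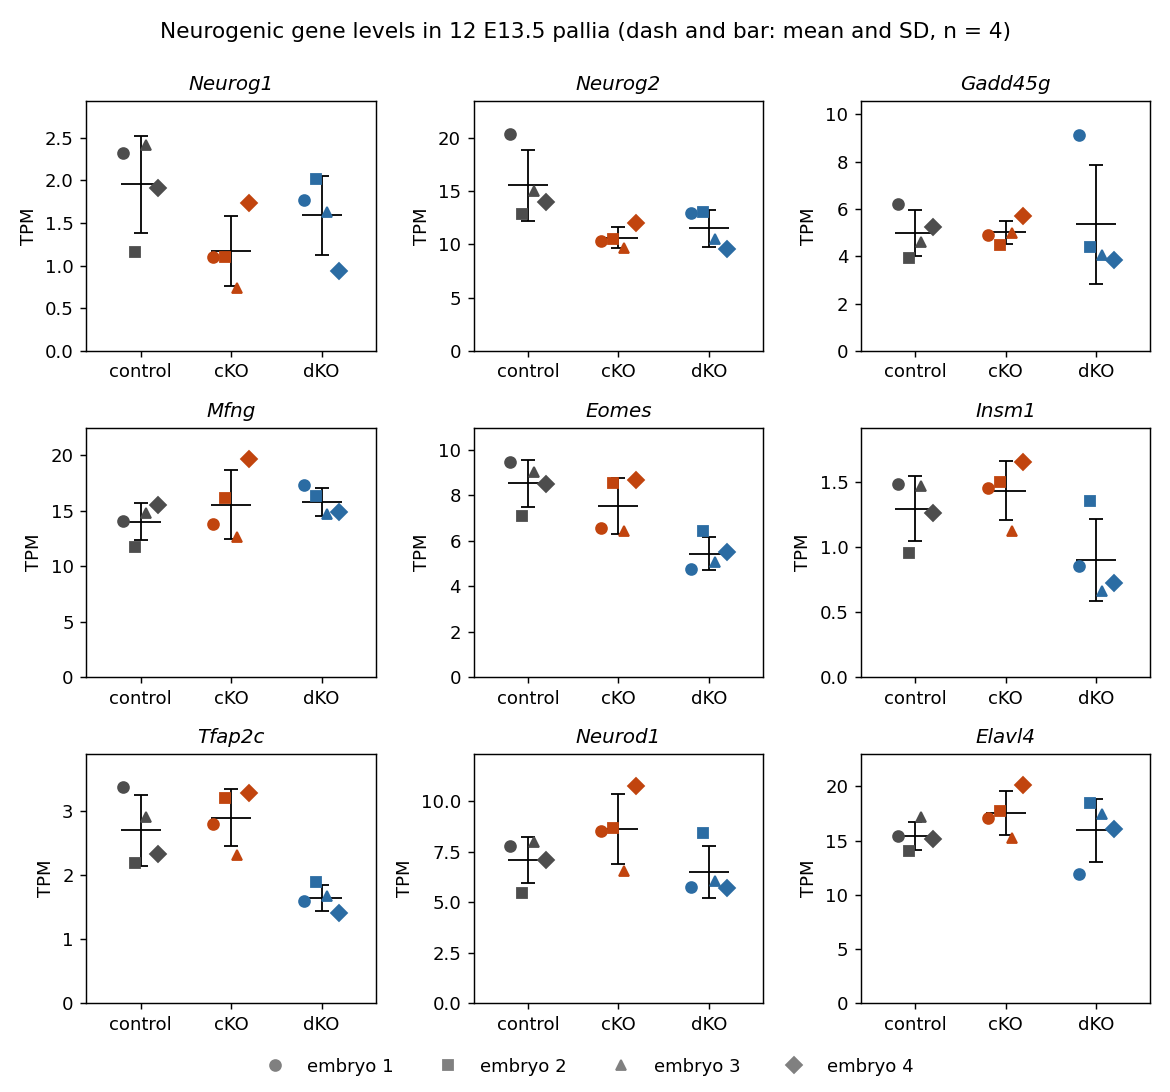
TPM of each of the 9 genes (y axis, linear, from 0) in the 4 control, 4 cKO and 4 dKO embryos; symbols mark the embryo number in the title of the sample, and the dash and bar give the mean and SD. Neurog2 is lower in all 4 cKO embryos than in any control, Eomes and Tfap2c are lower in all 4 dKO embryos than in any control, and dKO embryo 1 stands at 9.11 TPM of Gadd45g.

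Neurog2 was lower in the embryos that lost U11 alone. Its levels were 20.4, 12.9, 15.0 and 13.9 TPM in control embryos 1 to 4 and 10.3, 10.5, 9.66 and 12 TPM in the cKO embryos. The groups did not overlap, and the cKO mean was 68.3% of control. The log2(TPM + 1) difference was -0.49 ± 0.14 (SE; limma adjusted p = 0.0189) as deposited, -0.74 (0.0024) after centring and -0.64 (0.00379) after protein-coding rescaling. The gene stayed called when each of the 8 embryos was left out in turn, with differences from -0.57 to -0.36; the smallest came without control embryo 1, the highest of the 4.

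Of the 9 genes, only Neurog2 (1 of 9, lower) passed in this comparison as deposited, where 1.09% of all tested genes were called lower and 34.3% higher. After centring 3 of the 9 were called lower and none higher, against 2.96% of all genes called lower and 3.72% higher, and all 9 differences lay below 0. All 12 proliferation genes and all 4 dorsal markers also lay below 0 on that scale, at list medians of -0.29 and -0.41. After rescaling 1 of 9 was called lower, against 1.74% of all genes (11.3% higher). The median difference of the 9 was 0.08 as deposited, -0.17 after centring and -0.03 after rescaling, each below the median of all tested genes on the same scale (0.25, -0.0034 and 0.12).

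The other genes called after centring were Neurog1 and Eomes. Neurog1 levels were 2.32, 1.16, 2.42 and 1.91 TPM in control and 1.10, 1.10, 0.74 and 1.73 TPM in cKO. As deposited control embryo 2 lay among the cKO embryos, and the cKO mean was 59.8% of control. The Neurog1 difference was -0.44 (adjusted p = 0.0745) as deposited, -0.69 (0.019) after centring and -0.53 (0.05, not called) after rescaling. The centred call ended when control embryo 1, control embryo 3, cKO embryo 2 or cKO embryo 3 was left out (adjusted p = 0.0503, 0.0643, 0.0561 and 0.0569).

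Eomes levels were 9.46, 7.08, 9.04 and 8.51 TPM in control and 6.54, 8.54, 6.41 and 8.68 TPM in cKO. The cKO embryos fell, as deposited, into a low and a high pair, and the high pair lay within the control range. That pair, cKO embryos 2 and 4, also had the largest nuclear protein-coding shares of TPM in the group. These were 17.50% and 19.99%, against 16.09% and 16.07% in cKO embryos 1 and 3. On the centred scale cKO embryos 1 to 4 stood at 6.15, 7.30, 6.02 and 6.78, all below the lowest control embryo at 8.01. The Eomes difference was -0.16 (adjusted p = 0.294) as deposited, -0.30 (0.0555) after rescaling and -0.41 (0.0148) after centring, where the groups no longer overlapped. The centred call ended without control embryo 3 (adjusted p = 0.0501) or cKO embryo 1 (0.0527). The Eomes difference thus lay below 0 on all 3 scales, and whether it was called depended on the scaling of the libraries.

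The remaining 6 genes passed the test on none of the 3 scales in this comparison. As deposited their cKO means were 100.5% (Gadd45g) to 121.6% (Neurod1) of control. Their differences were 0.02 for Gadd45g, 0.08 for Tfap2c, 0.09 for Insm1, 0.13 for Mfng, 0.17 for Elavl4 and 0.24 for Neurod1 as deposited. After centring all 6 were below 0, from -0.23 (Gadd45g) to -0.0055 (Neurod1), and after rescaling 4 of them were, with Elavl4 at 0.02 and Neurod1 at 0.10. Their 95% intervals after centring ran at their widest from -0.67 to 0.20 (Gadd45g) and at their narrowest from -0.37 to 0.03 (Tfap2c).

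**Figure D2:**
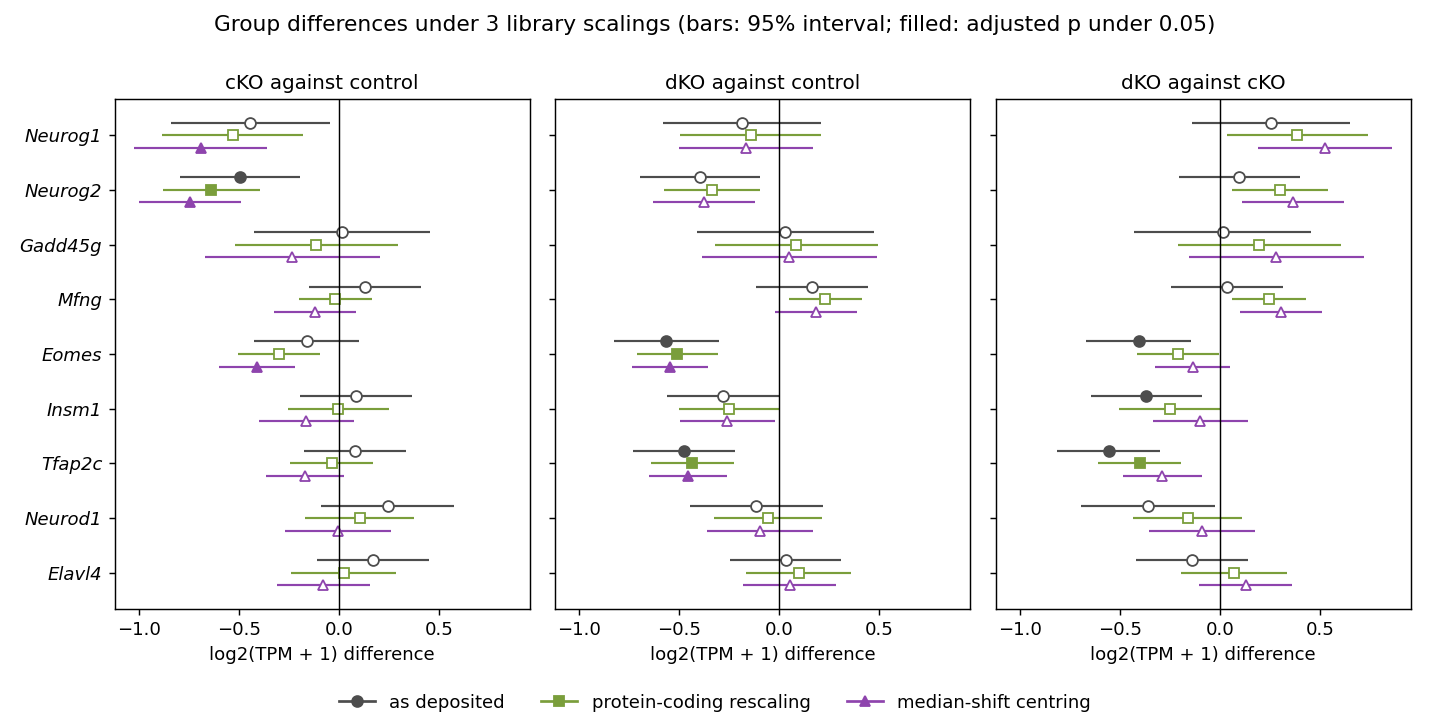
Difference in log2(TPM + 1) (x axis) for each gene in the 3 comparisons under the 3 library scalings; bars are 95% intervals and filled symbols have an adjusted p under 0.05. Neurog2 in cKO and Eomes and Tfap2c in dKO, each against control, are filled under all 3 scalings, while the dKO against cKO panel moves with the scaling.

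In dKO embryos, which lack both U11 and p53 in the recombined lineage, Eomes and Tfap2c were lower than in control. Eomes was 4.76, 6.42, 5.05 and 5.50 TPM in dKO against 7.08 to 9.46 TPM in control. All 4 dKO embryos lay below all 4 control embryos, and the dKO mean was 63.8% of control. The Eomes difference was -0.57 ± 0.12 (SE; limma adjusted p = 0.0181) as deposited, -0.55 (0.003) after centring and -0.51 (0.00694) after rescaling. As deposited the call ended without control embryo 1, 3 or 4 or without dKO embryo 3 (adjusted p = 0.0521, 0.0618, 0.0537 and 0.0542); after centring it was kept in all 8 fits that left an embryo out (adjusted p from 0.00291 to 0.0127).

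Tfap2c was 3.38, 2.19, 2.91 and 2.33 TPM in control and 1.61, 1.90, 1.67 and 1.41 TPM in dKO. The groups did not overlap, and the dKO mean of 1.65 ± 0.204 TPM was 60.9% of control. The Tfap2c difference was -0.48 ± 0.12 (SE; limma adjusted p = 0.0371) as deposited, -0.46 (0.01) after centring and -0.44 (0.0166) after rescaling. As deposited the call ended without any 1 of control embryos 1, 3 and 4 or dKO embryos 1, 3 and 4 (adjusted p from 0.0551 to 0.106), and after centring it was kept in all 8 such fits.

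These were 2 of 9 genes called lower and none higher, on all 3 scales; the share of all tested genes called lower in dKO against control was 3.40% as deposited, 4.69% after centring and 3.74% after rescaling, and the share called higher was 1.79%, 3.74% and 5.44%. The median of the 9 differences was -0.18 as deposited, where the median of all tested genes was -0.01. With the replicate number as a block, neither gene passed as deposited (Eomes adjusted p = 0.0501, Tfap2c 0.0934), and both passed after centring.

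Neurog2 in dKO was 12.9, 13.1, 10.5 and 9.51 TPM, 73.9% of the control mean, and 2 of its embryos lay just above the lowest control embryo. Its difference from control was -0.40 (adjusted p = 0.126) as deposited, -0.38 (0.0693) after centring and -0.33 (0.0808) after rescaling, so it was not called. The 95% intervals nevertheless lay below 0 on these 3 scales, at -0.70 to -0.09, -0.63 to -0.12 and -0.57 to -0.09. After centring and after rescaling all dKO embryos lay below all control embryos. The cKO and dKO embryos share the control embryos in these comparisons. Insm1 in dKO was 0.86, 1.36, 0.66 and 0.73 TPM against 0.95 to 1.49 TPM in control; embryo 2 lay within the control range and the other 3 below it. Its difference was -0.28 (adjusted p = 0.247; 95% interval -0.56 to -0.0011). Neurog1 (-0.19), Neurod1 (-0.11), Gadd45g (0.03), Elavl4 (0.03) and Mfng (0.17) were not called on any scale, with adjusted p from 0.533 to 0.957 as deposited.

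Gadd45g in dKO rested on 1 embryo: levels were 9.11, 4.40, 4.05 and 3.86 TPM, against 3.92 to 6.19 TPM in control and 4.49 to 5.69 TPM in cKO. Without dKO embryo 1 its difference from control turned from 0.03 to -0.22. Elavl4 in dKO embryo 1 was the lowest of all 12 embryos at 11.9 TPM, whereas the other 3 dKO embryos reached 16.0 to 18.5. Neurod1 was highest in dKO embryo 2, at 8.41 TPM against 5.71 to 6.08 in the other 3. That embryo had the highest mitochondrial share of TPM in the series (5.44%, against 0.757% to 2.79% in control and 0.805% to 1.45% in cKO); its part in these values was not tested.

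Setting dKO against cKO shows the genes that differed once p53 was lost as well. As deposited Tfap2c, Eomes and Insm1 were called lower in dKO, 3 of 9, in a comparison in which 38.8% of all tested genes were called lower and 0.612% higher, so this share is near that of the whole table. Tfap2c ran from 1.41 to 1.90 TPM in dKO and from 2.31 to 3.29 TPM in cKO, without overlap. Its dKO mean was 56.8% of the cKO mean, and the difference was -0.56 (limma adjusted p = 0.00442) as deposited, -0.40 (0.0237) after rescaling and -0.29 (0.0831) after centring. For Eomes the difference was -0.40 (0.021) as deposited, -0.21 (0.173) after rescaling and -0.14 (0.375) after centring. For Insm1 it was -0.37 (0.039), -0.25 (0.196) and -0.10 (0.625). The Insm1 call as deposited ended in 6 of the 8 fits that left an embryo out (all but those without cKO embryo 3 or dKO embryo 2: adjusted p from 0.0611 to 0.103) and the Eomes call in 3 (without cKO embryo 2, cKO embryo 4 or dKO embryo 1: adjusted p = 0.0676, 0.0663 and 0.0547).

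After centring none of the 9 genes was called between the mutants in limma, where 3.83% of all genes were called lower and 2.10% higher; at an unadjusted p under 0.05 4 of 9 passed. After rescaling 1 of 9, Tfap2c, was called lower, against 8.28% of all genes (1.40% higher). The proneural genes lay the other way: Neurog2 was 10.6 TPM in cKO and 11.5 in dKO, a difference of 0.10 (adjusted p = 0.584) as deposited and 0.37 (0.0875) after centring, and Neurog1 was 1.17 and 1.59 TPM, a difference of 0.26 (0.266) and 0.53 (0.065). The 95% interval of the centred difference was 0.11 to 0.62 for Neurog2 and 0.19 to 0.86 for Neurog1. Mfng differed by 0.04 (0.831) as deposited and 0.30 (0.0801) after centring.

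Ratios of 2 genes within an embryo do not depend on how a library is scaled. The ratio of Neurod1 to Eomes, a later against an earlier gene of the sequence, was 0.824, 0.775, 0.886 and 0.833 in control embryos 1 to 4. The cKO embryos stood at 1.30, 1.02, 1.02 and 1.24, and the dKO embryos at 1.21, 1.31, 1.2 and 1.04. Every mutant embryo lay above every control embryo, and the control values spanned a narrow range. The mean log2 ratio was higher by 0.46 in cKO and by 0.52 in dKO (exact two-sided permutation p = 0.0286 each, the smallest that 70 assignments allow; 0.114 after Benjamini-Hochberg adjustment over the 12 ratio tests). The mutants differed by 0.06 (exact permutation p = 0.743). Both mutant comparisons use the same control embryos.

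Eomes was also set against Pax6, the transcription factor of radial glia. The control ratio was 0.585 ± 0.0794, the cKO ratio 0.516 ± 0.0610 and the dKO ratio 0.385 ± 0.0604 (SD, n = 4 per group), with dKO at 0.345 to 0.473 and control at 0.524 to 0.695. It was lower in dKO than in control by 0.61 on the log2 scale (exact permutation p = 0.0286, adjusted 0.114), and Pax6 itself stood at 14.7, 14.6 and 14.5 TPM in the 3 groups. For cKO against control the log2 difference of this ratio was -0.18 (exact permutation p = 0.257). The ratio of Tbr1, a factor of postmitotic neurons of the deep layers and a paralog of Eomes, to Eomes averaged 0.336 for control, 0.526 for cKO and 0.586 for dKO (exact permutation p = 0.0571 and 0.143 against control). Neurog1 to Neurog2 was 0.126, 0.108 and 0.137 with overlapping groups (exact permutation p from 0.257 to 0.629). No ratio passed after adjustment. A ratio at the smallest possible exact permutation p (0.0286) could not pass alone among 12 tests, so this outcome says little about groups that did not overlap.

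**Figure D3:**
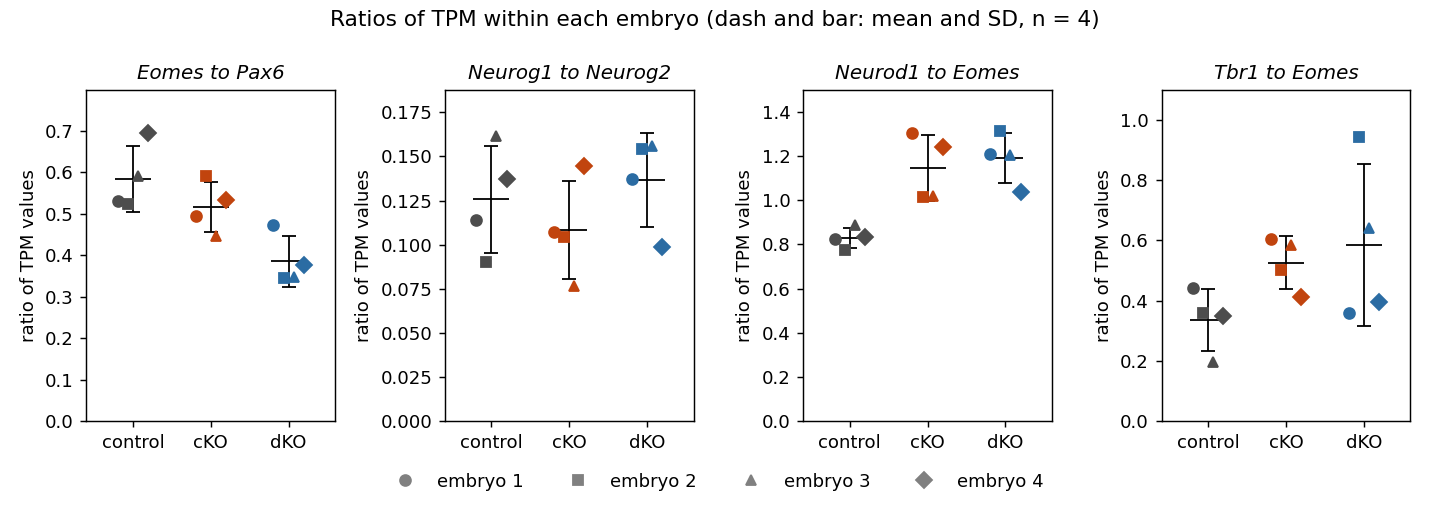
Ratio of the TPM of 2 genes within each embryo (y axis, linear, from 0) by group; symbols mark the embryo number, and the dash and bar give the mean and SD. Neurod1 to Eomes lies between 0.775 and 0.886 in control and between 1.02 and 1.31 in the mutants, and Eomes to Pax6 is lowest in dKO.

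Within the summed TPM of the 9 genes, Eomes took 11.8% to 12% in the 4 control embryos, 9.84% to 11.9% in cKO and 7.23% to 9.40% in dKO. The control embryos were close to each other on this measure although their Eomes levels ranged from 7.08 to 9.46 TPM. Neurog2 took 19.7% to 25.3% in control, 14.4% to 16.2% in cKO and 16.3% to 19.6% in dKO, so that all mutant embryos lay below all control embryos. Other members also separated from control: Neurod1 and Elavl4 took more in every cKO embryo. In every dKO embryo Mfng took more and Tfap2c less. Insm1, Gadd45g and Neurog1 overlapped control in both mutants. Shares of a sum are tied to each other, so a lower share of a gene raises those of the rest. They restate the same levels and were not tested.

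The genes whose pattern was most like that of Eomes over the 12 embryos, by Pearson correlation of centred log2(TPM + 1) values among 11763 genes, were Mex3b (r = 0.922), Rrm2 (0.918), Tigd3 (0.914), Dap3 (0.908) and Vash1 (0.905). With the group means removed the coefficients were 0.682, 0.593, 0.738, 0.22 and 0.726, so the likeness of Dap3 lies mostly between groups. Of the other 8 members Tfap2c was the most like Eomes (0.836), followed by Insm1 (0.788), Neurog2 (0.637), Neurod1 (0.467) and Neurog1 (0.458), with Elavl4 at 0.154, Gadd45g at -0.081 and Mfng at -0.138. With the group means removed the order was another: Neurod1 came first (0.734), then Insm1 (0.649), Tfap2c (0.563), Elavl4 (0.511), Neurog1 (0.379), Mfng (0.359), Neurog2 (0.24) and Gadd45g (-0.332). The 12 points share library scaling and genotype, and the coefficients are given as a description.

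Paralogs of the members were a further comparison. Of 18 relatives, 10 passed the filter on low values. In cKO 2 of these 10 were called higher as deposited, Gadd45a at 0.54 (adjusted p = 0.0197) and Neurod2 at 0.46 (0.0456), where 34.3% of all tested genes were called higher, and none in limma after centring (2 had an unadjusted p under 0.05). In dKO against control 2 were called lower, Neurod6 at -0.63 (0.0374) and Elavl2 at -0.50 (0.0474), where 3.40% of all genes were. Neurod2, a factor of postmitotic glutamatergic neurons, had the largest difference of the 10 between the mutants: it was 19.0 ± 2.46 TPM in cKO and 8.73 ± 2.52 in dKO, a difference of -1.06 (adjusted p = 0.000889) as deposited and -0.79 (0.0108) after centring. Its relative among the 9, Neurod1, was not called in that comparison (-0.36, adjusted p = 0.0789, and -0.09 after centring).

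Genes that act with the members, such as Notch ligands, E-protein partners and targets of proneural factors, formed a list of 18 that were all tested. In cKO 3 were called higher and none lower as deposited, against 34.3% of all genes called higher and 1.09% lower, so the share higher was below that of the whole table. After centring 1 was called higher and 1 lower, against 3.72% and 2.96%. The gene called higher on all scales was Nhlh2, a helix-loop-helix factor of early neurons, at 2.92 ± 0.0502 TPM in control and 4.98 ± 0.333 in cKO (0.61, adjusted p = 0.000617; 0.36, 0.0274 after centring). In dKO 1 of 18 was called, on all scales: Sstr2, a somatostatin receptor, whose control mean was 3.67 ± 0.626 TPM, cKO mean 3.04 ± 0.538 and dKO mean 2.02 ± 0.338. Its difference from control was -0.62 (adjusted p = 0.0139) as deposited and -0.60 (0.00424) after centring, with all dKO embryos below all controls. Tcf12, an E-protein partner of proneural factors, was called lower in dKO than in cKO as deposited (-0.56, adjusted p = 0.00275) and not after centring (-0.30, 0.0506).

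The opposing side, Notch receptors and effectors, Id proteins and Rest, moved in both directions. Of 14 genes, all tested, the cKO against control test called 4 higher and 3 lower as deposited, against 34.3% of all genes called higher and 1.09% lower. After centring 3 were called higher and 3 lower, against 3.72% and 2.96%. Id1 and Id3, inhibitors that bind E-proteins, were higher in cKO: Id1 rose from 1.72 ± 0.403 to 4.07 ± 0.554 TPM (0.90, adjusted p = 0.000634; 0.66, 0.00521 after centring) and Id3 from 3.32 ± 0.641 to 7.23 ± 1.17 (0.93, 0.00177; 0.68, 0.0271). Id4, a relative of these, went the other way: control embryos averaged 26.3 ± 3.94 TPM, cKO embryos 16.5 ± 3.02 and dKO embryos 16.7 ± 2.47. It was called lower in both mutants against control on all scales, at -0.64 (adjusted p = 0.00707) in cKO and -0.63 (0.0261) in dKO as deposited. Hey1, a Notch target, was lower in cKO at 11.2 ± 2.37 against 15.9 ± 2.33 TPM (-0.48, adjusted p = 0.0168; -0.72, 0.00111 after centring). Id2 was lower in dKO than in cKO (-0.79, adjusted p = 0.00117; -0.52, 0.0286 after centring). Bulk tissue does not show which cells held the Id RNAs. All 6 tested vessel and pericyte markers were also called higher in cKO as deposited, and 3 after centring. The part of such cells in the higher Id1 and Id3 was not tested.

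**Figure D4:**
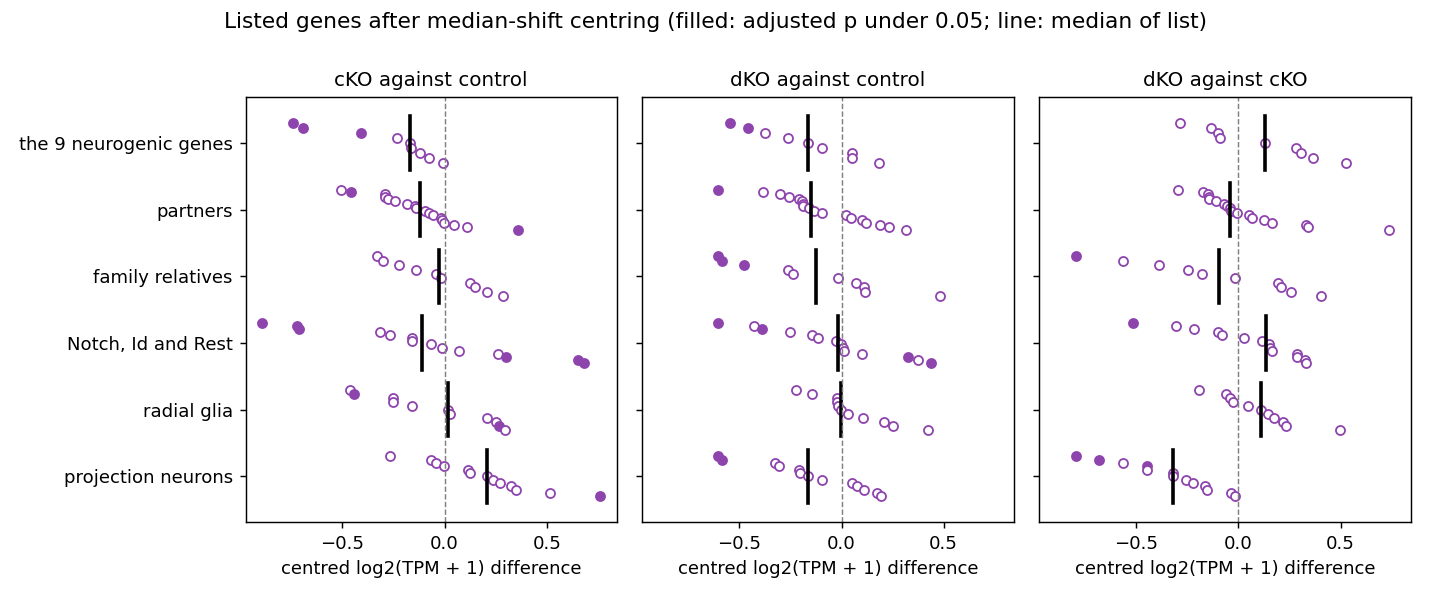
Difference in log2(TPM + 1) after median-shift centring (x axis) for each tested gene of 6 lists in the 3 comparisons; filled points have an adjusted p under 0.05 and the vertical line is the median of the list. For the 9 neurogenic genes all points lie below 0 in cKO against control, and the projection neuron points all lie below 0 in dKO against cKO. Proliferation genes and dorsal markers, not drawn here, also all lay below 0 in cKO against control.

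Markers of the stages before and after were counted in the same way. Of 11 radial glia genes, 4 were called higher in cKO as deposited, a share close to the 34.3% of all tested genes, with a list median of 0.27 against 0.25 for all genes; among them were Slc1a3 and Glul (0.55, adjusted p = 0.00505, and 0.52, 0.00177), and after centring 1 was higher and 1 lower; none was called in dKO against control in limma on any scale (2 had an unadjusted p under 0.05 as deposited and 3 after centring). Of 13 tested projection neuron genes, 7 were called higher in cKO and none lower as deposited (34.3% of all genes higher), and 1 after centring (3.72%): Gap43, a growth cone protein (1.01, adjusted p = 0.00019; 0.76, 0.00378). Between the mutants 10 of the 13 were called lower in dKO as deposited (38.8% of all genes) and 3 after centring (3.83%), and all 13 differences lay below 0 on every scale. The list median was -0.59 as deposited and -0.32 after centring, where the median of all tested genes was -0.26 and 0.01. Most genes thus also lay below 0 as deposited. The median of the 9 neurogenic genes was -0.14 and 0.13. The summed projection neuron level was 279 to 303.5 TPM in control, 368 to 453 in cKO and 197 to 298 in dKO. Of 12 proliferation genes 1 was called lower in cKO as deposited (1.09% of all genes) and 2 after centring (2.96%), and none higher. The first was Pcna, a replication factor (-0.37, limma adjusted p = 0.036, and -0.62, 0.0048 after centring). In dKO against control none of the 12 was called in limma as deposited, though 5 had an unadjusted p under 0.05. There 2 were called lower after centring (4.69% of all genes) and 2 after rescaling (3.74%), and none higher.

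Markers of other cell types in the dissected tissue were counted as well. Of all tested genes, 34.3% were called higher in cKO as deposited and 3.72% after centring. No such share was computed for an unadjusted p under 0.05. Of 7 tested microglia markers 6 were called higher in cKO as deposited and after centring, and their summed level (8 listed genes, none at 0) was 10.2 to 12.6 TPM in control, 41.4 to 57.3 in cKO and 12.3 to 16.2 in dKO. All 6 tested vessel and pericyte markers were called higher in cKO as deposited and 3 after centring, with sums of at most 14 TPM in control, 20.7 to 27.5 in cKO and 13.7 to 20.7 in dKO. Cajal-Retzius markers summed to 18.4 to 24.5, 41.6 to 48.1 and 21.7 to 32.2 TPM, with 3 of 5 tested called higher in cKO as deposited and 2 after centring. Of hem and choroid plexus markers 5 of 7 tested, and of meningeal markers 4 of 5, were called higher in cKO as deposited, and 1 of each after centring; none of 7 erythroid markers was called in limma or had an unadjusted p under 0.05. Ventral telencephalon markers, low in all groups, summed to 1.74 to 2.47 TPM in control, 3.68 to 5.31 in cKO and 1.68 to 3.79 in dKO. Only 1 of these 9 passed the filter, Dlx1. It was called higher in cKO as deposited, not after centring or rescaling, and was not called in dKO against control. The part of all these cells in the lower Neurog2 of cKO embryos was not tested. In dKO against control, where Eomes and Tfap2c were lower and 1.79% of all genes were called higher as deposited and 3.74% after centring, none of the 7 microglia markers was called in limma as deposited (3 had an unadjusted p under 0.05), at a median difference of 0.26. All 6 vessel and pericyte markers had a difference above 0; none was called in limma as deposited (all 6 had an unadjusted p under 0.05), and 1 was called after centring and 3 after rescaling. Of 5 meningeal markers, all with a difference above 0 and a median of 0.51, Col3a1, a collagen, was called higher as deposited, and it and Lum after centring. Of 5 Cajal-Retzius markers Calb2, a calcium-binding protein, was called higher on all 3 scales (0.79, adjusted p = 0.0106 as deposited). No hem and choroid plexus marker of 7 was called in limma (3 had an unadjusted p under 0.05 as deposited). The summed meningeal level was 24.7 to 41.9 TPM in control and 38.1 to 55.6 in dKO. The part of these cells in the lower Eomes and Tfap2c of dKO embryos was not tested.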

How the data were processed

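Total RNA of 12 pallia was sequenced after stranded TruSeq preparation, per the labels' protocols. Each embryo has 1 deposited table of TPM values by symbol; this unit was inferred from each table summing to 1000000. The submitters' processing notes name HISAT2 and mm10; the quantification tool and annotation are not given in the sources used here. TPM keeps no depth, so no counting interval is given. Groups came from the genotype labels, and no label or header names a batch.

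The limma package (3.58.1, R 4.3.3) was fitted to log2(TPM + 1) (lmFit, eBayes with trend, 1 fit of 3 group means) over the 11764 genes averaging at least 1 TPM, with Benjamini-Hochberg adjustment over all of them. Fold changes on this scale understate those of low genes. TPM ratios were compared by exact two-sided permutation. The procedure was tested on simulated data. Gene models are from GENCODE M21 (GRCm38) and promoters from RefSeq (GRCm38.p6); promoters of Insm1, Mfng and Tfap2c are not shown. Motifs were searched on both strands.

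Named beside the members are, from each other list and comparison, up to 2 called genes with the largest increase and up to 2 with the largest decrease, the ratio partners, the targeted genes and the 5 genes most like Eomes; the dorsal markers and Rest are named only as list members. The members and lists were chosen with earlier results of these data known.

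Replicate numbers repeat across groups, and no label says whether they mark litters. Correlations of same-numbered deviations ran from -0.095 to 0.075, but weak correlations over all genes cannot show that embryos were unpaired. Alternatives were median-shift centring, protein-coding rescaling, quantile normalization, a pseudocount of 0.1, no filter, a mean of at least 5 TPM, fits of 2 groups, the replicate block and leaving out each embryo; leaving out embryos and the block after centring were added after seeing the data.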

Additional observations from a re-analysis of the deposited data

Results flagged for a closer look

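In the dKO group, Gadd45g embryo 1 reached 9.11 TPM, while the highest of the rest was 4.40 TPM; its gap to the nearest embryo was 0.897 of the group's range, above Dixon's limit for 4 values. Neurod1 in dKO embryo 2 reached 8.41 TPM, while the highest of the rest was 6.08 TPM, a gap of 0.861 of the range. Over the 39 groups of 4 examined (the 9 genes and the 4 ratios in 3 genotypes), 2 passed the limit, where chance gives about 1.95.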

How the results depend on the processing

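Neurog2 in cKO and Eomes in dKO, each against control, kept their direction and call under every planned setting except that the Eomes call ended with the replicate block (adjusted p = 0.0501) and without some embryos. With centring, quantile normalization and rescaling, the members called were 3, 3 and 1 in cKO against control and 0, 0 and 1 in dKO against cKO. Members called in dKO against control were 1, Eomes, with no filter, with a mean of at least 5 TPM and with fits of 2 groups. Tfap2c lost its call there with no filter (limma adjusted p = 0.0854) and with fits of 2 groups (0.0571). The 5 TPM filter left 6 members to test, without Tfap2c, Neurog1 and Insm1. With that filter 1 was called in dKO against cKO. The replicate block left 1, 0 and 2 members called in cKO against control, dKO against control and dKO against cKO. After centring it left 2, 2 and 0. The main fit did not use it, as no label says that the numbers pair embryos. Leaving out 1 embryo gave 1 to 2, 0 to 2 and 1 to 4 members called, and 1 to 3, 2 to 3 and 0 to 1 after centring. Over all tested genes, those called numbered 4163 in cKO against control, 610 in dKO against control and 4636 in dKO against cKO as deposited. In the same order they numbered 786, 992 and 698 with centring, 810, 1029 and 798 with quantile normalization, 1539, 1080 and 1139 with rescaling, and 1900, 294 and 2220 with the 5 TPM filter.

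Differences not called turned sign in cKO against control with centring, quantile normalization and, where a further value stands, rescaling: Insm1 (-0.16, -0.18, -0.0023), Gadd45g (-0.23, -0.25, -0.11), Mfng (-0.12, -0.11, -0.017), Tfap2c (-0.17, -0.20, -0.035), Neurod1 (-0.0055, -0.016) and Elavl4 (-0.078, -0.053). Elavl4 in dKO against cKO became 0.13, 0.12 and 0.072. A pseudocount of 1 turned the Neurog1 to Neurog2 ratio in cKO to 0.052. Leaving out embryos gave both signs for Elavl4 in dKO against control (-0.041 to 0.16; centred -0.0088 to 0.17), Mfng in dKO against cKO (-0.053 to 0.15), centred Neurod1 in cKO (-0.082 to 0.077), and Gadd45g in cKO (-0.074 to 0.11), in dKO (-0.22 to 0.14; centred -0.21 to 0.14) and between the mutants (-0.23 to 0.12). The same held for Neurog1 to Neurog2 in dKO (-0.017 to 0.28) and Tbr1 to Eomes between the mutants (-0.21 to 0.26). The causes were not tested.

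Depth is unknown, so counting error cannot be separated from the spread of embryos, which matters most for Insm1, Neurog1 and Tfap2c.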
